A study of Mus musculus with 9 samples.

Results

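The loci described here are sites where the glucocorticoid receptor (GR) was called in all 4 ChIP-seq libraries of mouse granulosa cells, with about the same relative strength before and after an ovulatory signal, and which lie at or next to a protein-coding gene end. They were chosen by the fold enrichment of their peaks, in 3 steps. GR peaks of the 4 libraries on chromosomes 1 to 19 and X that overlapped by at least 1 bp were merged into 18570 loci, of which 5012 held a peak of every library. In each locus the highest fold enrichment of a library, a value the authors deposited for each peak, was divided by that library's median over the 5012 loci and put on a log2 scale. M is the mean of the 2 libraries at 6 h minus the mean of the 2 libraries at 0 h on that scale. Loci with M strictly between -0.5 and 0.5 and a protein-coding gene end, either the start or the 3′ end, no more than 1 kb away (mm10) were kept, and they numbered 3560. M lay inside these limits at 4459 of the 5012 shared loci (89.0%) and at 3560 of the 3840 shared loci near gene ends (92.7%), which are shares set by the selection itself. Fold enrichment and M therefore describe the loci below and are not tested between times.

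The mice were wild-type CBA x C57BL/6 F1 animals aged 21 days. All received 5 IU of eCG (also called PMSG), a gonadotropin that makes follicles grow, and their granulosa cells were taken 44 h later (0 h, 2 GR libraries) or 6 h after a further injection of 5 IU of hCG, which stands in for the LH surge (6 h, 2 GR libraries). Cells came from punctured ovaries, so the libraries hold what was released by puncture rather than a sorted population. One further library measured H3K27ac, an acetyl mark on histone H3 found at active promoters and enhancers, at 0 h and in 1 replicate, and 4 other samples of the series were not used here.

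GR is a nuclear receptor that binds glucocorticoid and then acts on genes either by contacting a palindromic DNA element itself or by joining other proteins that are already on the DNA. Granulosa cells surround the oocyte, make oestradiol before the LH surge, and after it switch to progesterone synthesis and to the genes of follicle rupture. Promoters of widely expressed genes are mostly rich in CpG dinucleotides, carry H3K27ac, and are bound by factors such as SP1, NFY, NRF1 and the ETS family.

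The sequences of 6 promoters are shown first, since the sites lie mostly at gene starts. They belong to 4 of the 10 loci with the highest mean strength (Kmt2a, Tbpl1, Polq and Rpl5) and to the strongest listed splicing factor gene (Srsf2) and early response gene (Fos). Each runs 5′ to 3′ on the strand of its gene, from 250 bases before the start site to 50 bases from it onward, and was taken from the RefSeq promoter table of build GRCm38.p6, whose chromosomes are those of mm10. Capitals mark matches to the 15 short motifs listed further on. Not every strong locus has one: the promoter windows of Gtf2a1 and Mrpl12, also among the 10 strongest and not printed, held no match.
Kmt2a (chr9:44881240-44881539, minus strand): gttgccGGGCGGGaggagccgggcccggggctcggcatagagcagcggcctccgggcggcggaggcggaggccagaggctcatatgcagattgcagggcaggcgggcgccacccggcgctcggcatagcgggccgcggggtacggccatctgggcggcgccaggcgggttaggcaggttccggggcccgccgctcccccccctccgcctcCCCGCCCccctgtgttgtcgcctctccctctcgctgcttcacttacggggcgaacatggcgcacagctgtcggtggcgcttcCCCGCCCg
Tbpl1 (chr10:22731398-22731697, minus strand): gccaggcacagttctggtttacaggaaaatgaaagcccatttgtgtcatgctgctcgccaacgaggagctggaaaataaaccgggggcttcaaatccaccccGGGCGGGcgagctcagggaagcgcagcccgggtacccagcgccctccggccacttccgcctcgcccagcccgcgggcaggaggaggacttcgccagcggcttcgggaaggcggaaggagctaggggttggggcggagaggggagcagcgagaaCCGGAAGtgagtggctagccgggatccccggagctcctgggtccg
Polq (chr16:37011536-37011835, plus strand): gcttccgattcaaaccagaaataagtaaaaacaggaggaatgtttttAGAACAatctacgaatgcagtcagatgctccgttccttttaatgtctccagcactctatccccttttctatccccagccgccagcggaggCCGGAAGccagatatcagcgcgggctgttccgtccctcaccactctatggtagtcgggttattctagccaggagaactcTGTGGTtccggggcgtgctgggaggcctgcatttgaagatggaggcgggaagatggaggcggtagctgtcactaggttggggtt
Rpl5 (chr5:107900278-107900577, plus strand): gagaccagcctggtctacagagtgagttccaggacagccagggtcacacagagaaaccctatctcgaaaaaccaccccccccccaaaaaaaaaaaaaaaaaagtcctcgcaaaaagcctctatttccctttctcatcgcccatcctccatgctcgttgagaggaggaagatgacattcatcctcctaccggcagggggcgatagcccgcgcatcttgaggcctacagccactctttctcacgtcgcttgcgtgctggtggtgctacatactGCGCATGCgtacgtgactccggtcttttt
Srsf2 (chr11:116853045-116853344, minus strand): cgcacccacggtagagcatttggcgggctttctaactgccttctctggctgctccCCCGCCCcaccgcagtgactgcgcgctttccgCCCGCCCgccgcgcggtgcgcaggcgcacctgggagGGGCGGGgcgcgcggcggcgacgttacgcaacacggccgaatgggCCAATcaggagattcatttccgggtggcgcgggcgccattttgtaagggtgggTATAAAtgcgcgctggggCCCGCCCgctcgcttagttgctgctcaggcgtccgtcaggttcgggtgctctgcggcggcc
Fos (chr12:85473640-85473939, plus strand): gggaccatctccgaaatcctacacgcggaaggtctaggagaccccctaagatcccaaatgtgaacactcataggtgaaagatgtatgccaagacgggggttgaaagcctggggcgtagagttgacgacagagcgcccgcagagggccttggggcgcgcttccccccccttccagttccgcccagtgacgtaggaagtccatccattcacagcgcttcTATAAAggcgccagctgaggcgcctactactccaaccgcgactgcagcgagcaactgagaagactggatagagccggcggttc
The capitals are 3 SP matches in Kmt2a, 1 SP and 1 ETS match in Tbpl1, and 1 match each to the GR hexamer, ETS and RUNX in Polq. Rpl5 held 1 NRF1 match, and Fos held 1 TATA match that began 33 bases before its start site. Srsf2 held 4 SP matches, 1 NFY match and 1 TATA match that began 29 bases before the start site. None of the 6 held the full GR palindrome.

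The number of peaks per library was 10115 and 9724 at 0 h and 14732 and 10587 at 6 h, and the files give no number of reads behind them. Median fold enrichment over the selected loci was 8.79 and 8.81 in the 0 h libraries and 9.73 and 6.72 in the 6 h libraries. Replicate 2 at 6 h gave the lowest fold enrichment at 2739 of the 3560 loci (76.9%), and replicate 1 at 6 h gave the highest at 1742 (48.9%). The 2 libraries at 6 h thus lay on either side of the 0 h pair, and division by the library median takes out this overall shift. The labels do not say that replicates came from separate mice, so the p-values below measure only how far these libraries spread, and that spread may be technical.

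H3K27ac and the selected GR loci were counted near marker genes of granulosa and other cell types. Over all protein-coding genes, 48.5% had H3K27ac within 1 kb of an end and 19.3% had a selected GR locus. Of 11 granulosa markers, 9 had H3K27ac within 1 kb of an end, and 2 (Foxl2, a transcription factor that keeps granulosa identity, and Hsd17b1, an enzyme of oestradiol synthesis) had one of the selected GR loci. H3K27ac stood near 3 of 11 theca markers, 1 of 14 oocyte markers, 3 of 14 leukocyte markers and 1 of 13 endothelial markers. GR loci of the selected kind stood near none of the theca, leukocyte and endothelial markers. The granulosa count of GR loci is near the share of all genes, and the lists are short. The GR counts therefore do not tell the cell types apart. The 1 oocyte marker, Gdf9, shares its locus with Uqcrq, a subunit of respiratory complex III.

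The strongest locus was at Kmt2a, the gene of a methyltransferase that marks histone H3 at active promoters (chr9:44881258-44881923). Its fold enrichment was 49.4 and 58.0 at 0 h and 52.8 and 42.0 at 6 h. The times overlapped, and the locus covers the gene's end. Here and below, overlap and order are those of the deposited values, before division by the library medians. Per1, a repressor of the circadian clock and a classical glucocorticoid-induced gene, came second (chr11:69096007-69098024). GR there gave 42.6 and 44.8 at 0 h and 47.6 and 30.9 at 6 h, so that the 0 h pair lay between the 6 h values. This locus lies 899 bp from the gene's end, inside the annotated gene. A second, weaker Per1 locus (chr11:69094521-69095871) gave 6.52 and 8.59 at 0 h and 8.49 and 5.20 at 6 h.

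Next in strength were 2 genes of transcription initiation, and Taf4, the strongest of the RNA polymerase II and Mediator list, is given beside them. At Gtf2a1, which encodes a subunit of TFIIA (chr12:91589630-91590746), fold enrichment was 39.7 and 35.5 at 0 h and 31.7 and 23.3 at 6 h. At Tbpl1, the gene of a relative of the TATA-binding protein (chr10:22730769-22732025), it was 36.0 and 33.5 at 0 h and 32.0 and 21.2 at 6 h. At Taf4, a TFIID subunit gene (chr2:179976751-179977225), it was 22.5 and 25.9 at 0 h and 22.9 and 18.1 at 6 h. Both 6 h values were below both 0 h values at Gtf2a1 and Tbpl1, and after division by the library medians M was -0.37 and -0.32, inside the limits. At Taf4 the times overlapped, with M of -0.15.

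The other loci of the top 10 belonged to genes of varied function. Ylpm1 (chr12:84995885-84996864) gave 32.8 and 31.6 at 0 h and 30.4 and 15.5 at 6 h. Polq, the gene of DNA polymerase theta (chr16:37011416-37012127), gave 29.8 and 29.2 at 0 h and 20.2 and 20.7 at 6 h, with close deposited values within each time. After division by the library medians the 6 h replicates at Polq lay apart, at 1.05 and 1.59 (log2). Rpl5, a ribosomal protein gene (chr5:107900358-107901214), gave 22.9 and 26.7 at 0 h and 30.0 and 18.5 at 6 h. Its M of 0.03 was the only positive one among the 10.
The locus shared by Mrpl12, of the mitochondrial ribosome, and Hgs, of endosomal sorting (chr11:120484101-120485265), gave 30.8 and 26.4 at 0 h and 21.3 and 17.5 at 6 h. The linker histone gene H1f2 (chr13:23738464-23740147) gave 25.3 and 24.1 at 0 h and 26.2 and 18.6 at 6 h. The locus of Zfp142, a zinc finger gene, and Bcs1l, which encodes an assembly factor of complex III (chr1:74587465-74588567), gave 25 and 30.6 at 0 h and 23.6 and 16.4 at 6 h. Replicate 2 at 6 h was the lowest library at 9 of the 10 loci, the exception being Polq.

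**Figure D1:**
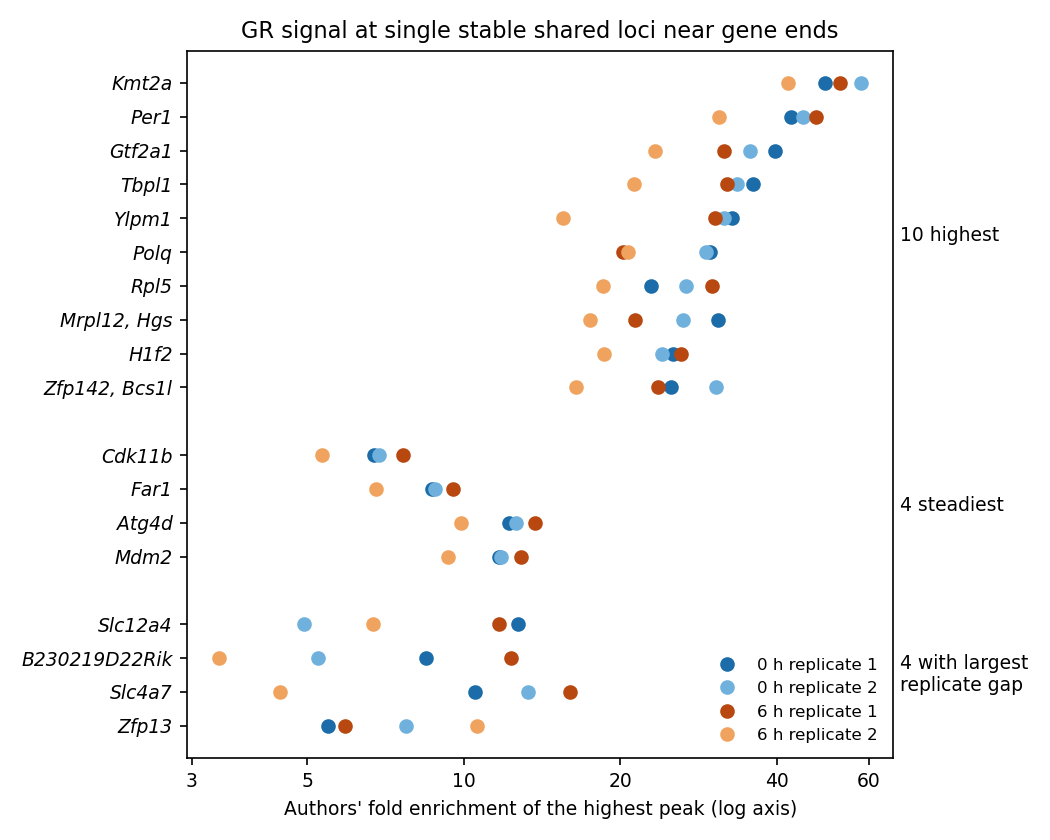
The authors' fold enrichment of the highest peak (log axis) in each of the 4 GR libraries is plotted for the 10 strongest loci, the 4 with the smallest range after scaling and the 4 with the largest difference between replicates. Kmt2a and Per1 lie above 30 in every library, replicate 2 at 6 h is lowest at 9 of the top 10, and at Slc12a4 and Slc4a7 the replicates of a time lie far apart.

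Spread within the set was modest. The scaled mean strength over the 4 libraries ran from -1.02 to 2.57 (log2), with a median of -0.02 and quartiles of -0.26 and 0.26, so a few loci form a long upper tail. M had a median of -0.05, with 1498 loci above 0 and 2062 below. The range over the 4 libraries had a median of 0.47 (log2), or 1.39-fold. The steadiest locus was at Cdk11b, a cyclin-dependent kinase gene, with 6.71 and 6.87 at 0 h and 7.64 and 5.35 at 6 h, which after scaling span only 0.03 (log2). The loci of Far1 (a fatty acyl-CoA reductase), Atg4d (an autophagy protease) and Mdm2 (the ubiquitin ligase of p53) were next, each with a span of 0.03.

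Stable means are not the same as close replicates. The 2 replicates differed by more than 0.5 (log2) at 511 loci (14.4%) at 0 h and at 547 (15.4%) at 6 h, although the mean difference between times at these loci stayed inside the limits. At Slc12a4, a potassium-chloride cotransporter gene, fold enrichment was 12.7 and 4.94 at 0 h and 11.7 and 6.70 at 6 h. At Slc4a7, a bicarbonate transporter gene, it was 10.5 and 13.3 at 0 h and 16 and 4.43 at 6 h. At the zinc finger gene Zfp13 it was 5.49 and 7.76 at 0 h and 5.91 and 10.6 at 6 h. The times overlap at all 3, and at Zfp13 replicate 2 at 6 h was the highest library rather than the lowest.

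Likeness between libraries is given over the 3560 loci as a description, since a small M between times was the condition of their choice. The median absolute difference was 0.221 (log2) between the 0 h replicates, 0.228 between the 6 h replicates and 0.219 to 0.233 between libraries of different times. Pearson's r of the scaled values was 0.732 for the 0 h pair, 0.677 for the 6 h pair and 0.712 to 0.746 for the 4 pairs of different times. The values share loci and the peak caller, and no order of the pairs is read from them.

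The loci just inside and just outside the limits of M were as follows. Just inside, Dcps (an mRNA cap-scavenging enzyme) had 7.44 and 9.53 at 0 h and 6.65 and 4.66 at 6 h, and Dtwd2 had 14.1 and 12.1 at 0 h and 12.3 and 6.10 at 6 h, both with M of -0.50. At the upper limit, Bad, a gene of a pro-apoptotic BCL2 family member, had 5.97 and 6.27 at 0 h and 10.9 and 5.98 at 6 h, and the shared locus of Ccdc142 and Mrpl53 had 7.10 and 9.45 at 0 h and 11.3 and 10.3 at 6 h. Just outside were Ldhb, a lactate dehydrogenase subunit (10.1 and 11.6, then 10.3 and 4.94), Tcf4, Tigd2 (7.91 and 5.64, then 10.9 and 7.17) and Nfx1. After scaling, both 6 h libraries lay above both 0 h libraries at Bad and below them at Ldhb.

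The 3560 loci stood within 1 kb of 4167 of 21631 protein-coding genes (19.3%). Among the 10491 genes with H3K27ac within 1 kb of an end, 4143 (39.5%) had such a locus. Gene lists are read against these 2 shares and against the median scaled strength of all selected loci, -0.02 (log2). The median strength of a list takes only the strongest locus of each gene, while -0.02 counts every locus, so the 2 are not quite alike. A list gives the share of its genes with a locus, with no test.

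The highest shares were those of the splicing factor and ribosomal protein lists. Of 40 splicing factor and hnRNP genes, 37 had a stable locus (92.5%), and all but Srsf9, Sf3a1 and Snrpe did. Srsf2, an SR protein gene that shares its locus with Mfsd11 (chr11:116852307-116854029), gave 23.0 and 30.3 at 0 h and 24.8 and 16.7 at 6 h. Srsf7, with Gemin6, gave 19.9 and 22.4 at 0 h and 18.9 and 14.1 at 6 h, and Srsf6 gave 16.6 and 14.2 at 0 h and 18.7 and 14.3 at 6 h. Only at Srsf7 were both 6 h values below both 0 h values. Of 79 cytosolic ribosomal protein genes, 70 had one (88.6%). Rpl10 gave 24.2 and 22.7 at 0 h and 22.7 and 17.6 at 6 h, Rpl36 (with Lonp1) 20.1 and 16.8 at 0 h and 21.9 and 14.4 at 6 h, and Rpl36a 15.7 and 18.9 at 0 h and 17.0 and 15.5 at 6 h. Of the 9 without one, Rps16 had a shared locus that strengthened beyond the limit, and Rpl21 and Rps28 had one that weakened. Ribosomal protein genes have many near-identical pseudogene copies, and the sources used here do not say how reads mapping to several places were treated.

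Translation factor genes (23 of 29, 79.3%) and chaperone genes (28 of 35, 80.0%) followed. Pabpc1, the gene of the poly(A)-binding protein, gave 19 and 17.4 at 0 h and 21.1 and 11.1 at 6 h. Eif2s1, a subunit of initiation factor eIF2 that shares its locus with Atp6v1d, gave 22.4 and 20.1 at 0 h and 14.5 and 14 at 6 h, with both 6 h values lower and M of -0.48. Calr, a calcium-binding chaperone of the endoplasmic reticulum, gave 16.8 and 26.3 at 0 h and 19.5 and 13.8 at 6 h. The genes of the HSP90 proteins that hold unliganded GR in a binding-ready state were among them: Hsp90ab1 gave 15.1 and 19 at 0 h and 18.5 and 12.8 at 6 h, and Hsp90aa1 gave 14.2 and 18.5 at 0 h and 20.2 and 10.8 at 6 h. The times overlapped at both, and at Hsp90aa1 the 0 h values lay between the 6 h values.

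Other widely expressed machineries had lower shares. Nuclear transport genes had 18 of 29 (62.1%), led by Tnpo2 and Ran. Chromatin regulators had 25 of 46 (54.3%), with Kmt2a first and Brd2, a reader of acetylated histones that shares its locus with H2-DMa, second at 25.2 and 20.3 at 0 h and 23.9 and 14.8 at 6 h. RNA polymerase II and Mediator genes had 18 of 39 (46.2%), and Polr2a, the largest subunit of the polymerase, gave 17.8 and 17.4 at 0 h and 15.3 and 11.4 at 6 h. Nuclear genes of oxidative phosphorylation had 20 of 40, and autophagy and lysosome genes 15 of 30. Proteasome subunit genes had 11 of 31 (35.5%) and aminoacyl-tRNA synthetase genes 8 of 20, near the share of 39.5% among acetylated genes, and 30 and 20 of them carried H3K27ac. Psmd1 stood out in its list with 25.7 and 15.3 at 0 h and 14.1 and 12.5 at 6 h.

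Cell cycle genes had the lowest share of any list whose genes were mostly acetylated: 27 of 30 had H3K27ac and 5 of 30 (16.7%) a stable locus. The 5 were Cdkn1b, the inhibitor p27, at 11.1 and 10.3 at 0 h and 12.7 and 8.17 at 6 h, and Mcm7, Cdc20, Pcna and Cdk4. Ccne1 and Cdc25a, which drive entry into S phase, had shared loci that strengthened instead.

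**Figure D2:**
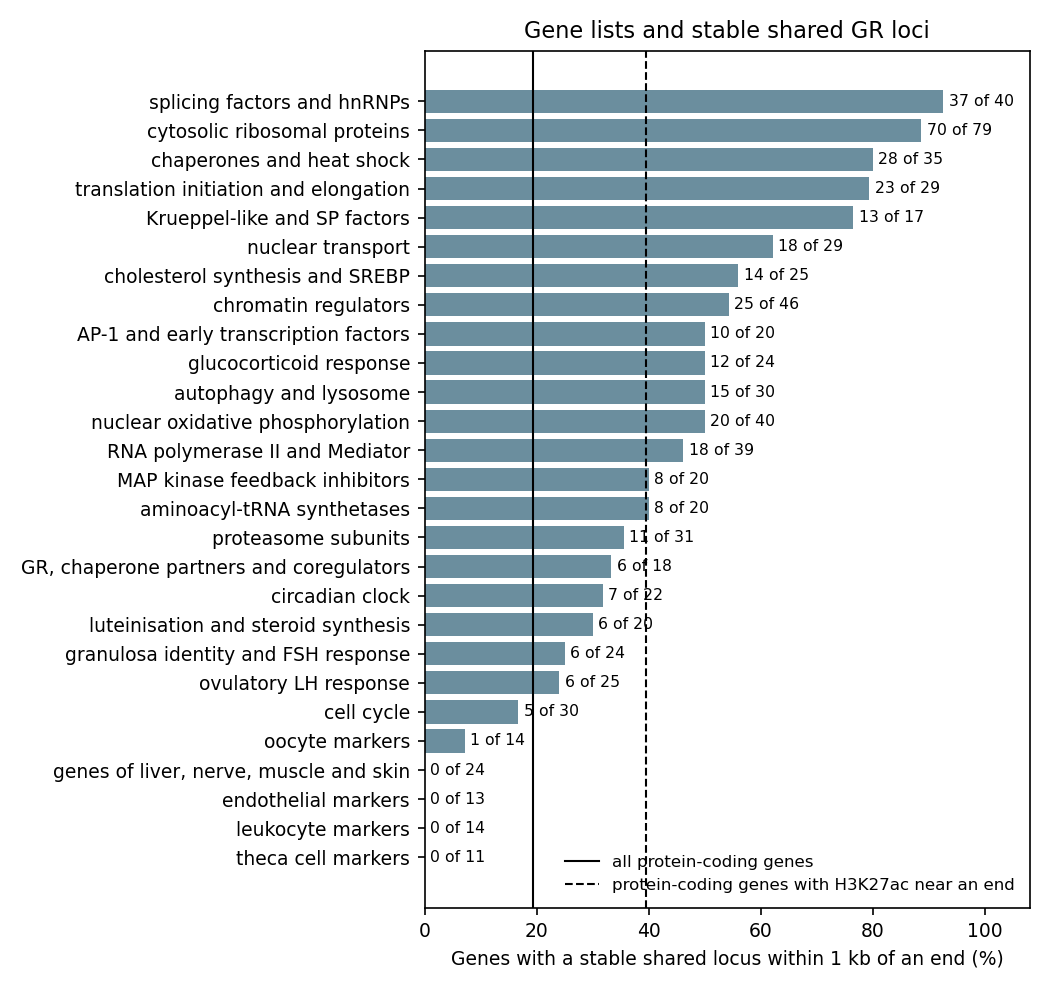
Bars give the percentage of each list's genes with a stable shared locus within 1 kb of an end, with the counts beside them. The solid line is the share among all protein-coding genes (19.3%) and the dashed line that among genes with H3K27ac near an end (39.5%); splicing factors, ribosomal proteins, chaperones and translation factors reach 79.3% or more, and the theca, endothelial, leukocyte and other-tissue lists hold none.

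Early response genes had loci of higher strength than most. Of 20 AP-1 and early transcription factor genes, 10 had a stable locus. The strongest locus of each had a median scaled strength of 0.87 (log2), against -0.02 for all loci. Fos (chr12:85473334-85476501) gave 21.8 and 22.4 at 0 h and 28.9 and 13.5 at 6 h, and Jund, near Iqcn, gave 21.7 and 23.8 at 0 h and 25.2 and 14.4 at 6 h. The 0 h values lay inside the 6 h range at both genes, which encode partners in the AP-1 dimer. Fosb gave 15.6 and 17.5 at 0 h and 20.9 and 12.8 at 6 h. Ier2, an immediate early gene, had 3 loci, the strongest at 18.4 and 16.9 at 0 h and 17.9 and 12.1 at 6 h. Fosl2 and Atf3 had shared loci that strengthened.

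Of 17 Krueppel-like and SP factor genes, 13 had a stable locus, and these were the same 13 that had H3K27ac. Klf9, a glucocorticoid-induced zinc finger factor, gave 11.3 and 13.3 at 0 h and 16.2 and 14.9 at 6 h. Here both 6 h values were above both 0 h values, and M was 0.44, close to the upper limit. Klf7 gave 15.8 and 16.3 at 0 h and 20.9 and 7.92 at 6 h, and Klf2 gave 13.6 and 14.3 at 0 h and 18.6 and 11.2 at 6 h.

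Of 24 genes of the classical glucocorticoid response, 12 had a stable locus near an end; all were among the 18 with H3K27ac, and they had a median scaled strength of 0.65 (log2). Next to Per1 these included Ddit4, an inhibitor of mTORC1 signalling, at 16.3 and 14.5 at 0 h and 20.5 and 11.2 at 6 h. Cebpb, a transcription factor needed for ovulation and luteinisation, gave 14.8 and 15.1 at 0 h and 19.3 and 11.9 at 6 h. Errfi1, a feedback inhibitor of the EGF receptor, gave 16.6 and 19.9 at 0 h and 19.2 and 8.88 at 6 h. The 0 h pair lay inside the 6 h range at Ddit4 and Cebpb. Fkbp5, Tsc22d3, Zbtb16 and Sgk1, which are widely used as GR target genes, had no stable locus within 1 kb of an end, and Nfkbia, an inhibitor of NF-kB, had one that strengthened. Of 20 feedback inhibitors of MAP kinase signalling 8 had a stable locus, among them the phosphatase gene Dusp1 with 11.9 and 11.5 at 0 h and 17.7 and 10.9 at 6 h. Of 22 clock genes 7 had one, and after Per1 the next was Nfil3 with 10.8 and 10.4 at 0 h and 15 and 11.6 at 6 h. Of 18 genes of GR, its partners, coregulators and related receptors and enzymes 6 had one, and GR itself (Nr3c1) did not. The 6 included the corepressor genes Ncor1 and Nrip1.

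Ovarian lists differed in how many of their genes were acetylated. Of 24 genes of granulosa identity and FSH response 21 had H3K27ac and 6 a stable locus (25%), which is below the share among acetylated genes. Sox4, a transcription factor gene, gave 11.4 and 9.53 at 0 h and 12.9 and 9.52 at 6 h. Gata6, a factor of gonadal steroid gene regulation, gave 9.91 and 13.2 at 0 h and 10.3 and 8.07 at 6 h. Foxl2 was weak, at 5.58 and 7.23 at 0 h and 5.81 and 4.71 at 6 h. Inha (inhibin alpha), Gja1 (connexin 43) and Nppc (the natriuretic peptide that holds the oocyte in arrest) had shared loci that weakened beyond the limit, Gja1 beside a stable one.
Of 25 genes of the ovulatory response to LH 6 had a stable locus (24.0%, against 19.3% of all genes). H3K27ac stood near 11 of them at 0 h, and these included the 6, a share of 54.5% against 39.5% of all acetylated genes. Adamts1, a matrix protease needed for follicle rupture, gave 13.9 and 15.8 at 0 h and 16.4 and 12.6 at 6 h. Egr1 and Zfp36 followed, and Vcan, Fosl2 and a second Zfp36 locus strengthened. Pgr, Ptgs2, Areg and Has2 had neither H3K27ac at 0 h nor a stable locus within 1 kb of an end. Of 20 luteinisation genes 6 had a stable locus, led by Soat1, which esterifies cholesterol, at 18.1 and 16.6 at 0 h and 14.1 and 10.2 at 6 h, both 6 h values lower.

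Cholesterol synthesis and SREBP genes had a higher share (14 of 25, 56.0%) but weak loci, with a median scaled strength of -0.25 (log2). Insig1, which retains SREBP in the endoplasmic reticulum, was the exception at 16.3 and 20.7 at 0 h and 21.5 and 14.4 at 6 h. The times overlap there. In all, 358 of the 718 distinct listed genes had a stable locus.

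H3K27ac, which the selection did not use, lay over nearly all the loci. Of 3560, 3528 overlapped an H3K27ac peak of the 0 h library (99.1%, Wilson 95% interval 98.7 to 99.4, counting error only). The stable shared loci that lay farther than 1 kb from any gene end, 899 in number, overlapped one at 96.4% (95 to 97.5). Counted over each library's own peaks, the share was 99.02% and 98.93% at 0 h and 99.02% and 98.88% at 6 h near gene ends. For the distal loci it was 95.77% and 96.00% at 0 h and 96.11% and 95.88% at 6 h. Every library thus gave a higher share near gene ends, by 3.02 percentage points on average (SD 0.153, n = 4 libraries). A two-sided exact sign flip permutation test gave p = 0.125, the smallest that 4 libraries allow. All 4 values come from the same loci and the same H3K27ac library, so they are near copies of each other. Equal signs were thus close to fixed in advance, and the SD and p-value here do not measure spread between replicates. The 104 strengthened and the 176 weakened shared loci near gene ends overlapped H3K27ac at 99.0% (94.8 to 99.8) and 99.4% (96.9 to 99.9), with intervals that include the share of the stable loci.

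The acetylated regions around the loci were broad. H3K27ac peaks holding a stable locus near a gene end had a median width of 1336 bp, against 637 bp for all 37453 H3K27ac peaks and 459 bp for the 3719 that lay within 1 kb of a gene end and held no GR peak of any library. Per locus the median width of the widest overlapping H3K27ac peak was 1438 bp near gene ends and 1765 bp at the distal loci. Wider peaks have more room for an overlap.

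At 32 loci no H3K27ac peak was called at 0 h. The strongest of them was at Arc (chr15:74672292-74672839), an activity-induced early gene, with 13.5 and 12.4 at 0 h and 18.6 and 11.7 at 6 h. Ier5l gave 15.6 and 13.7 at 0 h and 17.5 and 8.32 at 6 h, Pcbp2, of an RNA-binding protein, 17.0 and 13.9 at 0 h and 13.2 and 7.96 at 6 h, and Bahcc1 12.6 and 12.6 at 0 h and 17.3 and 8.60 at 6 h. The 0 h values lay inside the 6 h range at Arc, Ier5l and Bahcc1, while at Pcbp2 both 6 h values were lower.

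GR peaks at these loci were wider than at distal stable loci. In the 0 h libraries their median width was 541 and 505 bp, against 473 and 444 bp for the distal loci. In the 6 h libraries it was 627 and 375 bp, against 547 and 369 bp. The difference was 68, 61, 80 and 6 bp in these libraries, with a mean of 53.8 bp (SD 32.8, n = 4 libraries; exact sign flip permutation test, two-sided p = 0.125, the smallest possible). All 4 libraries gave wider peaks near gene ends, and in replicate 2 at 6 h the difference was near 0. The 4 libraries were measured at the same loci, so these differences are not independent. Between times the width did not separate: 523 ± 25.5 bp (SD, n = 2) at 0 h and 501 ± 178 bp (SD, n = 2) at 6 h, with an exact two-sided permutation p of 1.0 where 0.333 is the smallest possible. The 6 h value rests on replicate 2: without it the peaks were wider at 6 h by 93.3 bp.

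**Figure D3:**
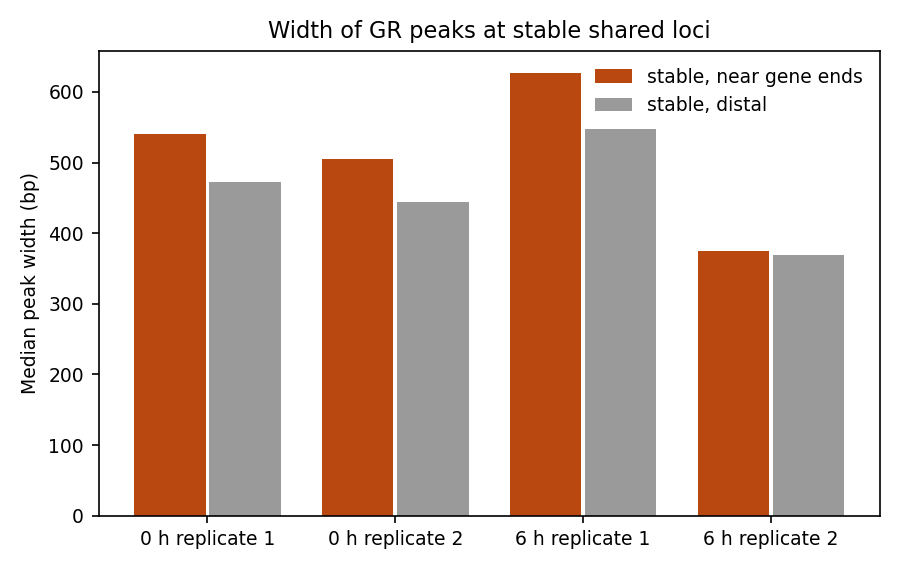
Bars give the median width in bp of GR peaks at stable shared loci near gene ends and at distal ones in each library. Peaks near gene ends are wider in all 4 libraries, by 61 to 80 bp in the first 3 and by 6 bp in replicate 2 at 6 h, which has the narrowest peaks of all.

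Locus width, H3K27ac peak width and strength ran together within the set. The loci were ordered by mean strength and cut into 4 sets of 890. The strongest set had a median merged locus width of 806.5 bp and sat in H3K27ac peaks with a median of 1560 bp. The weakest set had medians of 647 bp and 1357 bp, and the sets between them followed in order (750.5 and 714.5 bp for locus width, 1459 and 1424.5 bp for H3K27ac). Median fold enrichment fell over the same sets from 13.0 and 13.1 at 0 h and 13.9 and 9.39 at 6 h to 6.39 and 6.52 at 0 h and 7.11 and 5.13 at 6 h. That fall is fixed by the ordering, which used these same values, and only gives the scale of the sets. The share of loci within 1 kb of ends of several genes ran the other way, at 16.1% in the strongest set, then 19.3%, 22.0% and 24.9% in the weakest. A peak caller can give wider peaks where signal is higher, so locus width and strength may not be separate measures. This was not tested. The H3K27ac widths come from another library, but for each locus the widest overlapping peak was taken. A wider locus can meet more H3K27ac peaks, so these widths are not independent of locus width either.

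A locus had a median width of 726 bp (273 to 5732), against 654 bp for stable distal loci. By the selection all lay within 1 kb of a gene end, and 3000 of 3560 (84.3%) covered one. Strengthened and weakened shared loci near gene ends covered one at 81.7% and 84.7%. In each library's own peaks the summit lay at a median distance from the nearest gene end of 123 and 120 bp in the 0 h libraries, and of 123 and 135 bp in the 6 h libraries. The change from 121.5 ± 2.12 bp at 0 h to 129 ± 8.49 bp at 6 h (SD, n = 2 each) was within the spread, with an exact two-sided permutation p of 0.667 and a smallest possible p of 0.333. Most loci, 3009, held a single peak in each library.

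The position of summits was compared between times and between replicates. The median distance between summits of 2 libraries at the same locus was 43 bp for the 0 h pair and 46 bp for the 6 h pair, and 43, 45, 45 and 49 bp for the pairs of different times. The mean was 44.5 ± 2.12 bp (SD, n = 2) within a time and 45.5 ± 2.52 bp (SD, n = 4) between times (exact permutation test over the 3 ways to pair the libraries, two-sided p = 0.667, smallest possible 0.333). From 71.9% to 75.7% of loci had summits within 100 bp of each other, depending on the pair. This test can find no p under 0.333, so it cannot show whether summits moved by a few bp between times.

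Most of the loci were near gene starts. RefSeq promoters were at hand for 17274 of 21631 protein-coding genes (79.9%), none of them on chromosome 18. Of the 2856 loci whose genes are all in that table, 2800 (98.0%) lay within 1 kb of a start site. The other 56 had no tabulated start within 1 kb, among them the weaker Per1 locus, which covers an end of the gene as annotated. The strongest of these were at Sirt4, a mitochondrial sirtuin gene, with 15.9 and 13.3 at 0 h and 17.9 and 13.5 at 6 h, and at Tmem107 and the splicing factor gene Rbm25. A gene may use other starts than those in the table. The share near a start is not given here for other GR loci near gene ends, so it is not called particular to the stable set.

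Over the 2897 loci with a tabulated start within 1 kb, summits lay slightly downstream of it. The median position was +48 and +42 bp in the 0 h libraries, +54 and +62 bp in the 6 h libraries, and 65.8% and 62.3% of summits at 0 h and 67.1% and 67.4% at 6 h were downstream. The middle of the distribution, from the lower to the upper quartile, ran from -72 to 109 bp and from -88 to 104 bp before hCG, and from -51 to 111 bp and from -60 to 122 bp after it. All 4 libraries share this shape, and no such positions are given here for other GR loci near gene ends. The mean summit was within 200 bp of the start at 2380 loci (82.2%). The strongest locus is not typical: at Kmt2a the 4 summits lay upstream, at -167, -182, -165 and -178 bp.

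**Figure D4:**
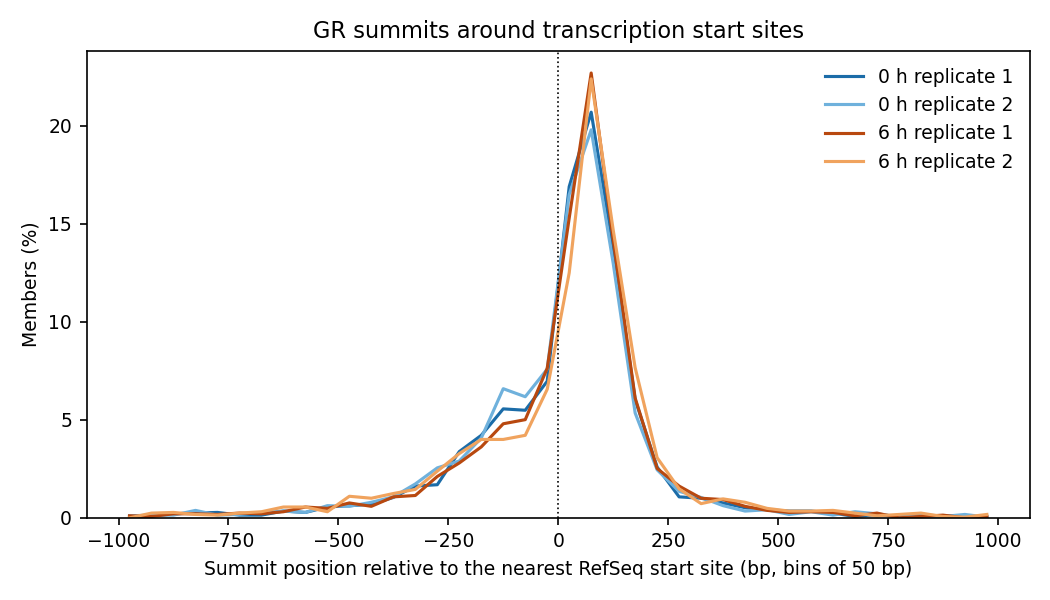
Lines give, for each library, the percentage of the 2897 loci whose summit falls in each 50 bp bin around the nearest RefSeq start site, with negative positions upstream. All 4 libraries peak just downstream of the start, with a lower shoulder upstream and medians of +42 to +62 bp.

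Some loci lay near ends of several genes, counting starts and 3′ ends alike. Of the 3560 loci, 733 (20.6%) lay within 1 kb of ends of several genes, 711 near 2 genes and 22 near 3 or more. The share was 17.3% at strengthened and 22.7% at weakened shared loci near gene ends, so it is not particular to the stable set. Start sites on both strands stood within 1 kb at 419 of the 2897 loci with a start (14.5%), a share not given here for other loci. The strongest with 3 genes lies at Topors (a ubiquitin and SUMO ligase), Smim27 and Ndufb6 (a complex I subunit), at chr4:40269311-40270117, with 19.5 and 19.4 at 0 h and 19.1 and 12.9 at 6 h. At such loci the file does not say which gene, if any, the binding concerns.
Conversely 132 genes had 2 loci and 8 genes 3. Of the genes with 3, Actb, the gene of beta-actin, had a strong one at 19.4 and 21.2 at 0 h and 24.2 and 13.9 at 6 h and weaker ones at 7.78 and 8.42, then 7.04 and 5.85, and at 6.82 and 9.74, then 6.75 and 4.93. Actg1, of gamma-actin, had its strongest at 19.6 and 19.9 at 0 h and 23.6 and 10.1 at 6 h. Both actin genes also have near-identical copies elsewhere in the genome.

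The promoter windows at these loci were rich in CpG. For each stable locus with a start within 1 kb, the RefSeq promoter whose start lay nearest the mean summit was taken. These 2864 promoters (each 300 bases, as printed above) had a median of 25 CpG (quartiles 19 and 31). Their observed over expected CpG ratio was 0.849 and their GC content 63.0%. The other sets in this paragraph hold every promoter of the table that meets their condition, with no such choice by summit. All 21045 promoters of the table had 13 CpG, a ratio of 0.574 and a GC content of 56.7%. The 10325 promoters with H3K27ac within 1 kb were closer, at 22 CpG and a ratio of 0.797. The 1761 acetylated promoters with no GR peak of any library within 1 kb had 14 CpG and a ratio of 0.590, and the 10720 promoters without H3K27ac had 4 and 0.256. Acetylated promoters without GR thus resembled the table as a whole more than the GR-bound ones.

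Motif matches were counted in the same windows on both strands: SP (GGGCGGG), ETS (CCGGAAG), NFY (CCAAT), NRF1 (GCATGCGC), YY1 (AAGATGGC), CRE (TGACGTCA), E-box (CACGTG), GR hexamer (AGAACA), AP-1 (TGANTCA), NR5A (CAAGGTCA), the GATA factor site (AGATAA), RUNX (TGTGGT), the TATA box (TATAAA), CEBP (TTGCNNCAA) and FOX (TGTTTAC). Each motif was counted by itself, so a base can belong to matches of several motifs. A match is a run of letters and not a bound site, and 45.1% of the loci with a start had their mean summit inside the window.

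Motifs of promoter-bound factors were more frequent at the stable loci than in the table. SP matches stood in 55.9% of the 2864 promoters, against 34.2% of all, 50.5% of acetylated promoters and 41.1% of acetylated promoters without GR. ETS matches stood in 22.7%, against 11.7%, 20.6% and 13.6%. NRF1 matches stood in 7.68%, against 3.54%, 6.13% and 3.69%, and YY1 matches in 6.32%, against 3.07%, 5.06% and 1.99%. The cAMP element (CRE) stood in 4.68%, against 2.26%, 3.53% and 2.16%. The NFY box differed little, at 40.5% against 38.5%, 38.7% and 36.5%. The E-box stood in 11.1%, against 7.91%, 10.5% and 9.77%. For all of these but NFY, acetylated promoters as a whole lay closer to the GR loci than to the table. At the 77 promoters of strengthened loci near gene ends the shares were 68.8% for SP, 22.1% for ETS, 9.09% for NRF1, 1.3% for YY1 and 0% for CRE. At the 152 promoters of weakened loci they were 49.3%, 25%, 7.89%, 7.24% and 6.58%. Some of these shares are above and some below those of the stable loci, and none of these motifs is called particular to the stable set.

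The letters of GR's own element were not more frequent. The hexamer AGAACA stood in 11.1% of the promoters at GR loci, in 16.3% of all promoters, in 11.1% of acetylated ones and in 14% of acetylated ones without GR. The full GR palindrome stood in 0 of 2864, and in 2 of 21045 in the whole table. With up to 1 mismatch it stood in 3 (0.105%) against 0.171% of all, and with up to 2 in 27 (0.943%) against 1.59% of all and 0.901% of acetylated promoters. No match says only that these letters are not in this window.

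Motifs of more cell-specific factors were less frequent at the GR loci than in the table: AP-1 at 3.91% against 7.04%, GATA at 4.36% against 9.68%, RUNX at 10.1% against 14.7% and NR5A at 0.698% against 1.29%. Acetylated promoters had 4.04%, 5.52%, 11.1% and 0.988% of these. The TATA box stood in 6.74%, below the 12.7% of all promoters but not below the 5.97% of acetylated ones. Some shares differed between the ends of the strength order. For this, only the 2897 loci with a tabulated start were ordered by mean strength and cut into 4 sets of about equal size. TATAAA stood in 11.6% of the 723 promoters of the strongest set and in 4.17% of the 720 of the weakest. Other motifs were less frequent at the strongest than at the weakest loci: the GR hexamer at 8.44% and 13.6%, NFY at 37.5% and 45.1%, and ETS at 19.8% and 25.4%. SP stood in 57.1% and 53.3%. The median CpG number of those promoters was 25 and 22.

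**Figure D5:**
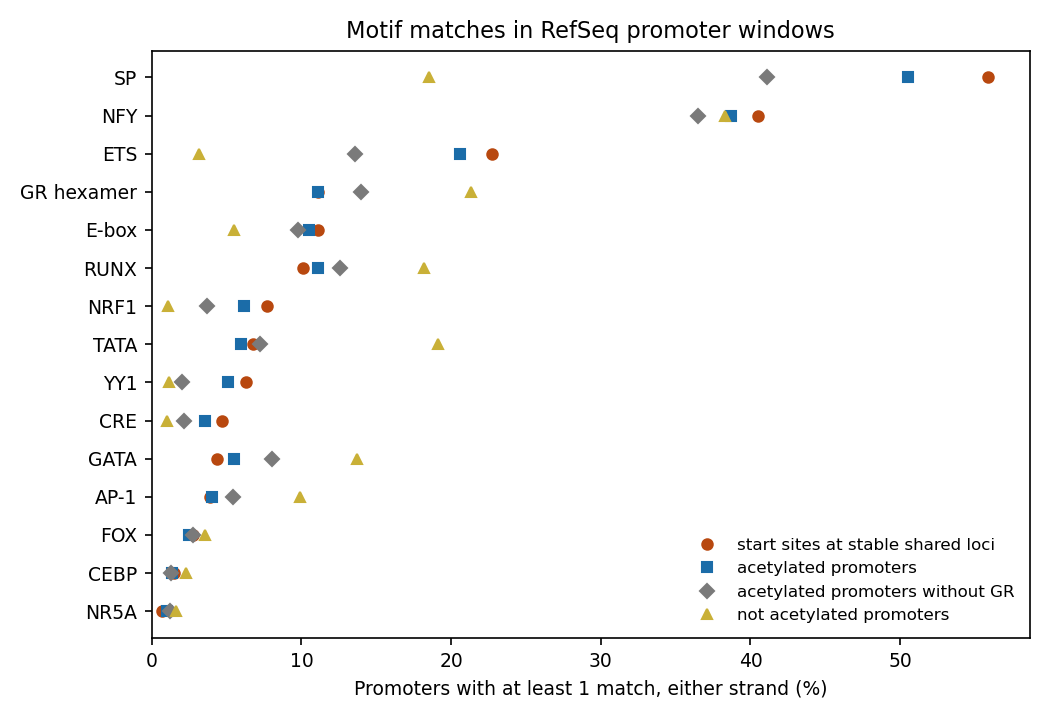
Points give the percentage of RefSeq promoter windows with at least 1 match to each motif on either strand, for start sites at stable shared loci, for promoters with H3K27ac, for promoters with H3K27ac and no GR peak, and for promoters without H3K27ac. SP, ETS, NRF1, YY1 and CRE are highest at the GR loci, while AP-1, GATA, RUNX and the GR hexamer are highest in promoters without H3K27ac.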

How the data were processed

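GR and H3K27ac ChIP-seq peak lists of granulosa cells were used as deposited, 1 list per library (4 GR libraries and 1 H3K27ac library). Reads were processed with Bowtie2 2.4.5 and MACS2 (version not given) on mm10, per the submitters' processing notes, and per the labels a pooled input was sequenced. Each list gives, as deposited by the authors, a fold enrichment over background per peak (a ratio), a −log10 p and −log10 q, a score and a summit. Peaks were called per library, and the lists give no depth in reads. Fold enrichments are the authors' own values for each peak.

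From these lists loci were merged (1 bp overlap) and scaled as described above, with Python 3.11.15, numpy 2.4.6, pandas 2.3.3 and scipy 1.17.1. Gene ends, start sites and promoter sequences came from RefSeq tables of GRCm38.p6. Tests were exact permutation tests over libraries. Merging, the classes of loci and the H3K27ac overlap were checked on simulated peak lists. The sign flip test and the permutation test between times were checked on inputs with known answers. The test over the ways to pair the libraries was not checked in this way. Intervals are Wilson 95% intervals. Genes named were the 10 strongest loci, up to 4 strongest per list, loci at the limits of M, the steadiest and least steady, the strongest outside H3K27ac, and those with most loci or genes. The loci and the 27 gene lists were chosen with earlier results of these data known. Genes named beyond the rule were chosen after their values were seen. Loci on chromosome Y and in unplaced sequence were left out. The alternatives, among them other limits, scalings, thresholds and each library left out, are given in the closing section.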

Additional observations from a re-analysis of the deposited data

How the results depend on the processing

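The number of loci stayed within 1.5 times of 3560 under every alternative run. With all 4 libraries it was 2431 with a limit of M of 0.25 and 3830 with a limit of 1, the lowest and the highest. Leaving out each library in turn gave 3351 to 4578 loci, the most without replicate 2 at 6 h, and 90.6% to 92.6% of the 3560 were found again. Replicate numbers share only a number here (the correlation of same-numbered deviations was 0.028). With a replicate block, in which both same-numbered differences had to lie inside the limits, 2617 loci remained, and the paired differences were -22 bp for width and 7.5 bp for the summit to gene end distance, with an exact sign flip p of 1.0 for each. The median M of shared loci near gene ends was -0.055, -0.126 when scaled to all peaks and -0.152 unscaled.

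The share in H3K27ac was 91.99% when the summit of every library had to lie inside and 97.61% when 50% of the locus had to be covered. It was 98.71% to 99.07% with 1 library left out, the lowest without replicate 2 at 6 h. The difference in summit distance between and within times turned to -0.5 bp with a limit of 0.25 and ran from -2.5 to 2.5 bp with 1 library left out. The width difference between times ran from -146 to 93.3 bp with 1 library left out and reversed without replicate 2 at 6 h. With 1 library left out, the H3K27ac difference from distal loci ran from 2.37 to 4.95 points, the width difference from 42 to 62 bp and the summit to gene end difference from 1.5 to 12 bp. Against acetylated promoters the member share was higher by 0.14 points for CEBP, 0.77 for TATA and 0.25 for FOX, where it was lower against all promoters, and against acetylated promoters without GR it was higher by 0.19 points for CEBP; this background and the palindrome mismatches were chosen after seeing the data. The leukocyte list held 1 gene with a locus at 2 kb. The causes were not tested. Without read depth, faint sites called in fewer than 4 libraries are not covered.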
